A study of Mus musculus and Acomys cahirinus with 84 samples.

Results

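Primary skin fibroblasts of wild mice (Mus musculus) were irradiated with 20 Gy and profiled by RNA sequencing 12 d later, against untreated cultures sampled at the same time. The members were the 4 libraries labelled 20 Gy, 12 d and the 4 labelled untreated, 12 d, together 8 of the 56 libraries in the mouse count table and of the 84 samples in the series. They were chosen by their labels, and the 4 untreated libraries that had been passaged were kept apart. Libraries of the same replicate number carried the same animal code in their names and were compared as pairs. Also used were 4 wild mouse libraries at 12 d after 10 Gy, the 4 passaged ones, wild mouse libraries at 24 h after 20 Gy with their own controls, and 8 libraries of C56BL6 mouse fibroblasts (20 Gy and untreated, 12 d, 4 each). The labels gave no genotype beyond the population, and no age or passage number. All libraries were made from polyA RNA with a stranded mRNA kit. All 12 d libraries were in batch B2 and all 24 h libraries in batch B1, which confounds the time with the batch.

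Ionising radiation breaks DNA and activates p53, a transcription factor whose targets halt the cell cycle, repair DNA or start cell death. Fibroblasts that survive a high dose often leave the cell cycle for good, a state called senescence, which is known for a high level of the cell cycle inhibitor p21 (the product of Cdkn1a) and for secreted cytokines, growth factors and proteases. DNA that escapes from damaged nuclei can also trigger the interferon pathway, in which interferon or sensors of nucleic acid switch on a set of antiviral genes. Fibroblasts otherwise make the collagens and glycoproteins of the extracellular matrix.

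The libraries labelled replicate 1 and replicate 4 looked alike. A gene counted as separating a pair of numbers if it was on in all libraries of one number (at least 1 CPM, counts scaled to library size) and off in all of the other (at most 2 counts). Between numbers 1 and 4 there were 0 such genes at 12 d, against 22 to 80 for the other pairs of numbers. At 24 h the same pair had 73. Across the times, the 12 d libraries of number 1 differed from the 24 h libraries of number 1 by 58 genes and from those of number 4 by 0, while numbers 2, 3 and 4 each differed from their own number by 0. The 12 d libraries labelled replicate 1 therefore went against their label, and 4 pairs may hold 3 animals. Within the 20 Gy group the replicate 1 and 4 libraries still differed by a variance 36.6 times the sampling noise (167 to 332 times for other pairs of numbers), so they were not a single library deposited again. Each leading result is given both for the 4 pairs and with replicates 1 and 4 summed into 1 pair, which leaves 3.

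**Figure D1:**
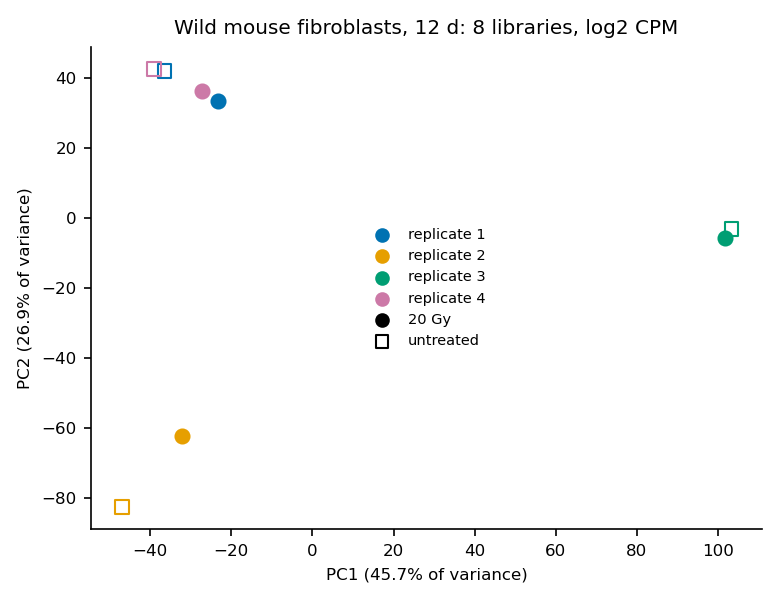
Principal components of log2 CPM in the 8 libraries; filled circles are 20 Gy, open squares untreated, and colours are replicate numbers. The first axis (45.7% of the variance) sets replicate 3 apart from the other numbers, the second (26.9%) replicate 2 from replicates 1 and 4, which lie together.

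Total counts ran from 26212722 to 33533505 in the 20 Gy libraries and from 23142197 to 30192000 in the untreated ones, so that 3 counts correspond to 0.089 to 0.114 CPM and 0.099 to 0.13 CPM. Mitochondrial transcripts took 1.39 to 2.06% of the counts at 20 Gy and 0.77 to 1.41% in the controls. Fibroblast markers were present throughout: all 13 on the list were above 3 counts in both groups, and their summed level was 17726 to 99312 CPM untreated and 17834 to 37523 CPM at 20 Gy. The lowest of both ranges was replicate 3. Within the list 1 gene was called higher (S100a4) and 4 lower (Col3a1, Lum, Pdgfra and Dpt), and none with replicates 1 and 4 summed. Keratinocyte markers summed to 2.5 to 6.7 CPM untreated and 9.53 to 11 CPM at 20 Gy, with 5 and 8 of 13 markers above 3 counts in a library and Krt14 at most 0.0439 CPM in any of the 8. Of 4 members tested Ivl (involucrin) and Dsp (desmoplakin) were called higher, also with replicates 1 and 4 summed. Ivl was at 0.0674 to 0.494 CPM untreated and 1.21 to 8.32 CPM at 20 Gy, and Dsp at 0.0329 to 0.791 and 0.359 to 4.27 CPM. Summed levels of endothelial markers were 2.54 to 17.8 and 2.55 to 15.8 CPM, with 6 and 9 of 11 above 3 counts. Of 5 tested Pecam1 (CD31) and Tek were called higher, and Pecam1 also summed, from at most 0.132 CPM untreated to 0.466 to 0.977 CPM. Leukocyte markers summed to 16 to 44.3 and 24.9 to 43.9 CPM, with 6 and 9 of 14 above 3 counts, and 1 of 4 tested, Cd68, was called higher (not summed). Ptprc (CD45), which defines leukocytes, had 0 counts in all untreated libraries and at most 0.179 CPM at 20 Gy. Markers of smooth muscle and pericytes, many of which fibroblasts also express, summed to 821 to 1245 CPM untreated and 643 to 1970 CPM at 20 Gy, and 2 of 8 tested, Des and Rgs5, were called higher (neither summed). Adipocyte markers summed to 20.7 to 74.6 and 28.8 to 77 CPM, with 1 of 8 tested called lower (Cfd), and melanocyte and Schwann cell markers to 17.1 to 29.9 and 15.9 to 45.2 CPM. The part of other cell types in the results was not tested.

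At 12 d after 20 Gy, wild mouse fibroblasts carried higher levels of p53 target genes and of interferon-stimulated genes than untreated cultures. Levels of some matrix and complement genes were lower. Of 14399 genes tested, 2224 (15.4%) passed an adjusted p of 0.05 (edgeR quasi-likelihood test with the replicate number as a block, Benjamini-Hochberg adjustment), of which 1103 (7.66%) were higher and 1121 (7.79%) lower. The member counts of each gene list below are to be read beside these shares. Those counts compare 20 Gy with untreated libraries only. Passaged libraries, which were not irradiated, were on average as low or lower on the collagen, matrix glycoprotein and complement lists (levels below). At least a 2-fold change was estimated for 468 of the genes that rose and 297 of those that fell. With replicates 1 and 4 summed, 359 of 14423 genes passed (2.49%; 198 higher, 1.37%; 161 lower, 1.12%), and 358 of these were among the 2224, in the same direction. Leaving replicate 1 out left 288 calls and leaving replicate 4 out 374, whereas 2469 stood without replicate 2 and 2147 without replicate 3. Ranges without any overlap between the 4 treated and 4 untreated libraries were seen for 578 genes that were higher (4.01%) and 757 that were lower (5.26%). In bulk RNA, fewer cells of a kind and less RNA per cell cannot be told apart. Levels below are CPM scaled by edgeR's TMM factors, which compare 1 gene between libraries and not 2 genes with each other.

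Most of the listed p53 targets rose. The lists were chosen with earlier results of these data known, so their counts describe these data and are no independent test. Of 40 listed genes, all tested, 32 were higher and 1 lower, with a median log2 fold change of 1.07 (all genes tested: 0.00). With replicates 1 and 4 summed, 15 were higher and 0 lower, with a median of 1.04. Cdkn1a (chromosome 17, 29309936-29319701, plus strand, GRCm39) encodes p21. Its levels in replicates 1 to 4 were 83.7, 37.8, 128 and 74.9 CPM untreated and 458, 313, 413 and 421 CPM at 20 Gy. Every irradiated library was above every control, and the log2 fold change was 2.44 ± 0.21 (SE, n = 4 pairs, edgeR adjusted p = 0.00298, and 0.0278 with replicates 1 and 4 summed). Mdm2 (chromosome 10, 117524780-117546730, minus strand), the ubiquitin ligase that degrades p53, stood at 68.7, 59.3, 55 and 75.1 CPM untreated and at 247, 215, 135 and 317 CPM at 20 Gy. The groups did not overlap, with a log2 fold change of 1.80 ± 0.14 (adjusted p = 0.00276, and 0.0251 summed). Ccng1, cyclin G1, was at 188 to 328 CPM untreated and 626 to 846 CPM at 20 Gy, a log2 fold change of 1.57 ± 0.17 (adjusted p = 0.00492, and 0.0412 summed).

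Other p53 targets with low adjusted p were Plk3, a stress-responsive kinase, Cd80, a costimulatory ligand for T cells, and Zmat3, an RNA-binding protein. Plk3 rose from 5.89–10.3 to 18.8–27.6 CPM, Cd80 from 0.615–2.93 to 6.78–17.5 CPM, and Zmat3 from 41.3–66.8 to 104–149 CPM, all 3 without overlap. Their log2 fold changes were 1.52 ± 0.12, 2.84 ± 0.24 and 1.12 ± 0.10, each with an adjusted p of 0.0029 (summed, 0.0251). Plk3 was at 16.8 to 24.2 CPM in passaged libraries, which overlaps its 20 Gy range. Cd80 was at 1.61 to 4.51 CPM there and Zmat3 at 62.7 to 103 CPM, both below their 20 Gy ranges. Inka2 (inhibitor of a PAK kinase) and Ano3 (a member of the anoctamin membrane proteins) were among the 10 largest rises of genes with at least 5 CPM on average and the same direction in 4 pairs. Inka2 rose from 2.19, 1.01, 2.34 and 2.26 CPM to 27.5, 26.4, 12 and 25.8 CPM, a log2 fold change of 3.52 ± 0.34 (adjusted p = 0.00372, and 0.0311 summed). The member that fell was Sesn1, a sestrin, from 20.9–31.8 to 12.3–20.5 CPM with a log2 fold change of -0.62 ± 0.12 (adjusted p = 0.0211, and 0.106 summed). Gdf15, a stress-induced secreted factor, had overlapping groups and a call that was lost on summing. It was at 8.17, 0.264, 0.691 and 14.1 CPM untreated and at 16, 5.15, 3.37 and 35.7 CPM at 20 Gy, higher in each pair, with a log2 fold change of 1.84 ± 0.41 (adjusted p = 0.0294, and 0.0804 summed).

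**Figure D2:**
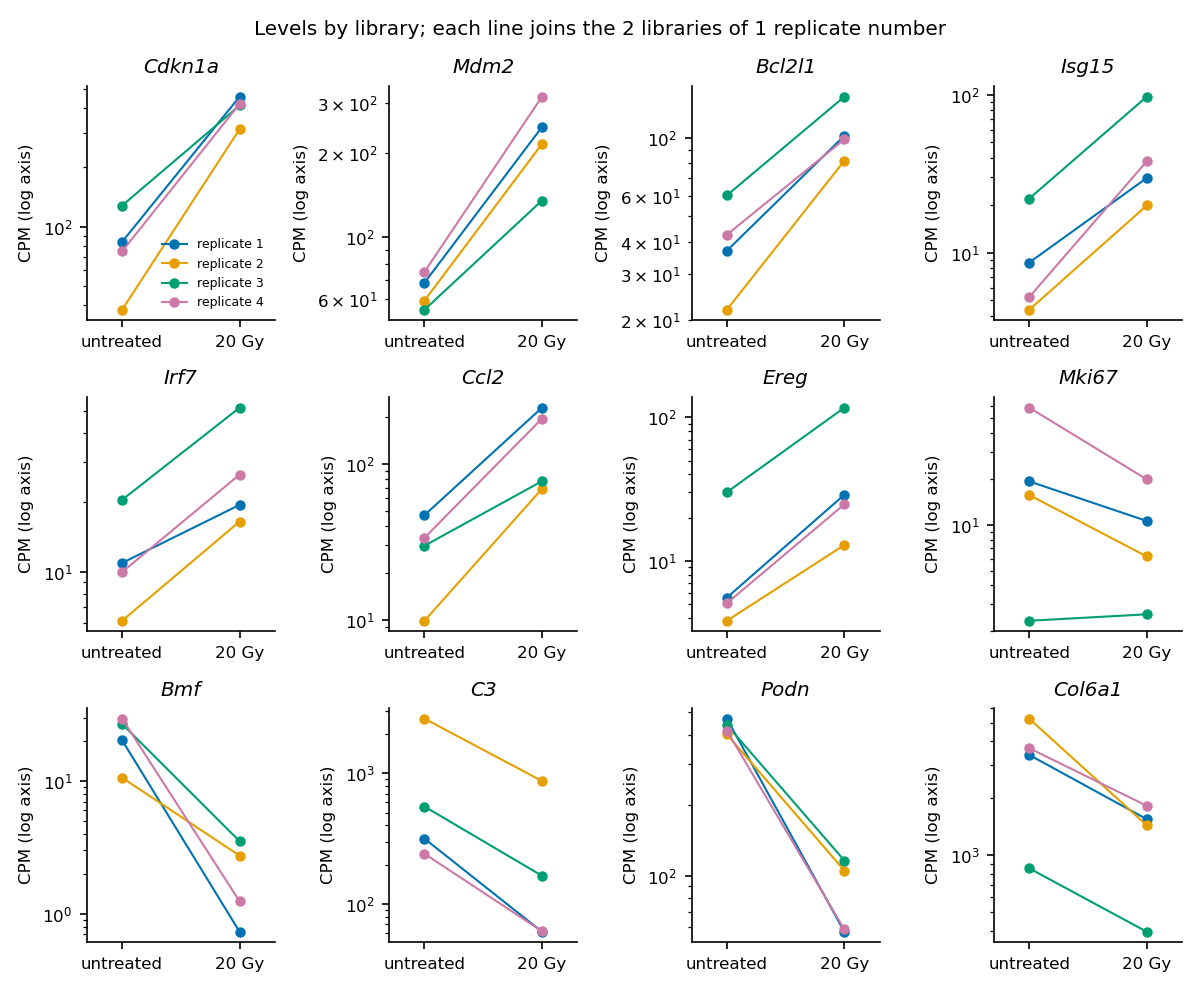
Levels of 12 genes in CPM (log axis) in untreated and 20 Gy libraries; each line joins the libraries of 1 replicate number. Cdkn1a, Mdm2, Bcl2l1, Isg15, Irf7, Ccl2 and Ereg go up and Bmf, C3, Podn and Col6a1 down in all 4 pairs, while Mki67 goes down in 3 and is low in both libraries of replicate 3.

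Genes of the BCL2 family, which holds both inhibitors and promoters of cell death, split. Of 13 tested members (17 listed), 4 were higher and 1 lower; with replicates 1 and 4 summed, 2 and 1. The median was 0.18. Bcl2l1, which encodes the survival protein BCL-xL, was at 36.9, 21.9, 60.2 and 42.5 CPM untreated and 102, 81.8, 144 and 98.8 CPM at 20 Gy, a log2 fold change of 1.49 ± 0.13 (adjusted p = 0.0029, and 0.0251 summed). Pmaip1 (NOXA), a p53 target that promotes death, went from 0, 0.0879, 0.461 and 0.169 CPM to 6.58, 4.4, 2.73 and 8.43 CPM (log2 fold change 4.79 ± 0.69, adjusted p = 0.00941, and 0.0473 summed). Bmf, a death-promoting member that binds BCL2 proteins, fell from 20.3, 10.6, 26.9 and 29.5 CPM to 0.732, 2.74, 3.52 and 1.24 CPM. Its log2 fold change was -3.43 ± 0.47 (adjusted p = 0.00819, and 0.047 summed), among the 10 largest falls of genes above 5 CPM on average with the same direction in 4 pairs. Bmf was also low in passaged libraries, at 2.09 to 5.95 CPM.

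Cell cycle genes changed little in number of calls. Of 41 mitosis genes tested, 0 were higher and 3 were lower, Kif11, Ccnb1 and Mki67, a share of 3 in 41 beside 7.79% of all genes. The estimate was below 0 for 40 of the 41 (median -0.47), 14 had an unadjusted p under 0.05 in edgeR, and with replicates 1 and 4 summed 0 passed and 11 had an unadjusted p under 0.05. Without replicate 4 the median was -0.22, 33 of 41 estimates were below 0, 0 passed and 4 had an unadjusted p under 0.05. Mki67, the proliferation marker Ki-67, was at 19.3, 15.7, 2.34 and 58.9 CPM untreated and at 10.6, 6.19, 2.58 and 19.9 CPM at 20 Gy. The groups overlapped, replicate 3 did not fall, and the log2 fold change of -0.97 ± 0.26 (adjusted p = 0.0476) was not called with replicates 1 and 4 summed (0.158). In the 4 passaged libraries Mki67 was at 93.7 to 180 CPM, above all 8 of these. Top2a, a topoisomerase of dividing cells, had a log2 fold change of -0.57 ± 0.20 (adjusted p = 0.0963), and Lmnb1, lamin B1 of the nuclear envelope, one of -0.50 ± 0.16 (adjusted p = 0.0831). Neither passed.

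Among 37 DNA replication genes 2 were higher and 1 lower, beside 7.66 and 7.79% of all genes. The median was -0.11, and summed 0 and 0 passed, with 5 at an unadjusted p under 0.05 in edgeR. The higher pair were subunits of ribonucleotide reductase, which makes DNA building blocks. Rrm2 was at 38.1, 47.3, 4.84 and 38.3 CPM untreated and at 145, 70.6, 8.14 and 103 CPM at 20 Gy, a log2 fold change of 1.21 ± 0.23 (adjusted p = 0.0173, and 0.0774 summed). Rrm1 had a log2 fold change of 0.44 ± 0.11 (adjusted p = 0.0397, and 0.162 summed), while Mcm6, of the replicative helicase, had one of -0.54 ± 0.13 (adjusted p = 0.033, and 0.151 summed). In the list of cyclin-dependent kinase inhibitors, RB and E2F genes, 3 of 22 were higher and 3 lower (summed, 1 and 1). The inhibitors did not move as a group: beside the rise of Cdkn1a, Cdkn1b (p27) was at 106, 112, 122 and 108 CPM untreated and at 42.2, 53.7, 50.8 and 44.1 CPM at 20 Gy. The groups did not overlap, and the log2 fold change was -1.21 ± 0.09 (adjusted p = 0.00221, and 0.0251 summed). Cdkn2a, the locus of p16 and ARF, was at 76.9 to 109 CPM untreated and 70.2 to 86 CPM at 20 Gy, with a log2 fold change of -0.22 ± 0.10 (adjusted p = 0.174). The table counts both Cdkn2a products together.

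Of 22 nuclear envelope and chromatin genes 0 were higher and 7 lower (median -0.22, and summed 0 and 0, with 8 at an unadjusted p under 0.05). Hmgb1, a chromatin protein that can be released as an alarm signal, was at 110 to 150 CPM untreated and 61.2 to 101 CPM at 20 Gy (log2 fold change -0.58 ± 0.10, adjusted p = 0.0141, and 0.0684 summed). Dnmt3a, a DNA methyltransferase, had one of -0.56 ± 0.10 (adjusted p = 0.0165, and 0.0686 summed). None of 22 genes of homologous recombination and the Fanconi pathway passed with edgeR (1 at an unadjusted p under 0.05, and 2 summed), and 1 of 22 damage signalling and end-joining genes did, Parp1, with a log2 fold change of -0.40 ± 0.10 (adjusted p = 0.0439, and 0.168 summed).

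The interferon-stimulated genes rose together, on a list that was also chosen with earlier results of these data known. Of 50 listed, 46 were tested, and 34 were higher and 0 lower, with a median log2 fold change of 1.13. With replicates 1 and 4 summed, 19 of 46 were higher and 0 lower (median 1.18). The promoters of 4 of them are shown, picked among called members whose windows hold a shared element. The letters GAAA, any 2 bases and GAAA again, a core of the interferon-stimulated response element, were searched on both strands of RefSeq windows (GRCm38.p6) of 300 bases, 250 before to 50 after each annotated start. Of the 50 listed genes 36 had a window, and 19 of these (52.8%) held the letters, beside 3.44% of 32851 windows in the table and 3.78% of 10437 tested genes. Among listed genes that were called higher the share was 13 of 25, and among the rest 6 of 11. The stretches below are the 250 bases before the start in GRCm38.p6, on the gene's strand, for the 4 called genes with the letters and the lowest adjusted p. Capitals mark the matches, which overlap each other in Isg15 and Irgm1.
Isg15, chr4:156200819-156201068, minus strand: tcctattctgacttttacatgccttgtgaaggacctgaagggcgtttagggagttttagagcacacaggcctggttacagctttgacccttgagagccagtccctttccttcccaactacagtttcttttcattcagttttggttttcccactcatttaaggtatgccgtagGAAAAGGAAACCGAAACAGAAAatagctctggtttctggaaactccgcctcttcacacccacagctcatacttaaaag
Oas3, chr5:120777660-120777909, minus strand: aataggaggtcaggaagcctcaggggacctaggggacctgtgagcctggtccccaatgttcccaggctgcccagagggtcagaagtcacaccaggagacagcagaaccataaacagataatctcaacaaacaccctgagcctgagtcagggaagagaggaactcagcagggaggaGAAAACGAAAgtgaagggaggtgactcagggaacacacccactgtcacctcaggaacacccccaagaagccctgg
Irgm1, chr11:48871421-48871670, minus strand: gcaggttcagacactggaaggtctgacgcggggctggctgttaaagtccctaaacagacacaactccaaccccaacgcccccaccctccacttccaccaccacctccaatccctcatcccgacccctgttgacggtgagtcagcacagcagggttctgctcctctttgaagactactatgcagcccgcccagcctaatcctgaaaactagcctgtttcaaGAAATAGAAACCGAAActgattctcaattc
Trim30a, chr7:104465194-104465443, minus strand: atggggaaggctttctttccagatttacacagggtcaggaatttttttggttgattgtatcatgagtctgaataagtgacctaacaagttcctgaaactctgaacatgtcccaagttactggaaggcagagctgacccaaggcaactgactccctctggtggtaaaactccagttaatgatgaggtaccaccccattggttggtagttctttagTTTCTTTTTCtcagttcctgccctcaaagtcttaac

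The nearest match began 66 bases before the start in Isg15, 75 in Oas3, 24 in Irgm1 and 36 in Trim30a. Trim30a has a further annotated start, whose window held no match. A match is a string of letters and was not tested for binding. Isg15, a ubiquitin-like protein attached to other proteins, was at 8.66, 4.35, 22 and 5.23 CPM untreated and at 29.7, 19.9, 97.3 and 37.9 CPM at 20 Gy. Replicate 3 was the highest in both groups, each pair rose, and the log2 fold change was 2.27 ± 0.17 (edgeR adjusted p = 0.00276, and 0.01 summed). Oas3, an enzyme that senses double-stranded RNA, went from 0.0893, 0.176, 0.0988 and 0.202 CPM to 1.06, 3.42, 0.753 and 3.2 CPM (log2 fold change 3.78 ± 0.35, adjusted p = 0.00331, and 0.0261 summed). Its untreated levels lay near that of 3 counts. Irgm1, an immunity-related GTPase, rose from 37.9, 35.6, 66 and 42.8 CPM to 82.1, 83.5, 256 and 108 CPM, without overlap (log2 fold change 1.44 ± 0.15, adjusted p = 0.00407, and 0.0292 summed). Trim30a, of a family of ubiquitin ligases, rose from 4.06, 1.14, 0.988 and 2.87 CPM to 15.8, 14.6, 4.99 and 17.3 CPM (log2 fold change 2.63 ± 0.27, adjusted p = 0.00407, and 0.0292 summed).

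Rtp4, another interferon-stimulated gene, rose from 2.23–8.63 to 12–30.2 CPM (log2 fold change 2.16 ± 0.20, adjusted p = 0.00331, and 0.0204 summed). Irf7, the transcription factor that amplifies the interferon response, rose from 6.11–20.5 to 16.5–51.6 CPM (1.28 ± 0.13, adjusted p = 0.00392, and 0.0247 summed). Usp18, which removes ISG15 from proteins and dampens the interferon receptor, was among the 10 largest rises of genes above 5 CPM on average, from 2.14, 0.439, 3.16 and 1.59 CPM to 8.3, 10.3, 18.7 and 16.5 CPM (2.99 ± 0.36, adjusted p = 0.00609, and 0.0293 summed). Ifi44 was another, from 0.357, 2.37, 13 and 0.135 CPM to 5.16, 8.05, 80.9 and 6.82 CPM, with replicate 3 far above the rest (2.98 ± 0.45, adjusted p = 0.0107, and 0.0473 summed). Ifnb1, interferon beta itself, had 0 counts in all 8 libraries, which allows at most 0.13 CPM in the shallowest.

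The list of nucleic acid sensing genes, which also holds interferon receptor chains, gave calls near the share over all genes. Of 20 tested 1 was higher and 2 were lower, beside 7.66 and 7.79% of all genes. The median was -0.08, and summed 0 and 0 passed, with 5 at an unadjusted p under 0.05 in edgeR. Adar, which edits double-stranded RNA, had a log2 fold change of 0.60 ± 0.10 (adjusted p = 0.0117, and 0.0567 summed). Myd88, an adaptor of Toll-like receptors, had one of -0.52 ± 0.09 (adjusted p = 0.0148, and 0.0779 summed), and Ifnar2, a chain of the interferon receptor, one of -0.40 ± 0.08 (adjusted p = 0.0215, and 0.0897 summed). Antigen presentation genes gave 1 higher and 2 lower of 20, also near the shares over all genes (summed, 0 and 1). H2-T23, a non-classical class I molecule, was at 55.1 to 115 CPM untreated and 33.9 to 60.9 CPM at 20 Gy (log2 fold change -0.88 ± 0.10, adjusted p = 0.00463, and 0.0333 summed). Tapbp, tapasin of the peptide loading complex, had a log2 fold change of -0.59 ± 0.10 (adjusted p = 0.0125, and 0.0523 summed). Class I genes, Oas genes and Trim30 genes have near copies, and their counts can be split by shared reads.

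Secreted cytokines and chemokines gave 11 higher and 3 lower of 32 tested (42 listed, median 0.53), and 4 and 1 with replicates 1 and 4 summed. Ereg, the growth factor epiregulin, was at 5.54, 3.82, 30.1 and 5.06 CPM untreated and at 28.9, 12.9, 117 and 24.8 CPM at 20 Gy. It rose in each pair although replicate 3 was highest in both groups (log2 fold change 2.13 ± 0.13, adjusted p = 0.00221, and 0.0202 summed). Ccl2, a monocyte attractant, rose from 46.8, 9.84, 29.8 and 33.5 CPM to 229, 69, 77.3 and 195 CPM without overlap (2.28 ± 0.23, adjusted p = 0.00392, and 0.0335 summed). Il6 was at 15.1, 10, 28.9 and 11.8 CPM untreated and at 21.2, 20, 69.7 and 20.7 CPM at 20 Gy (0.93 ± 0.14, adjusted p = 0.00979, and 0.0412 summed). Csf1, the macrophage growth factor, rose from 652–1749 to 1586–6445 CPM (1.40 ± 0.20, adjusted p = 0.00875, and 0.0502 summed). Passaged libraries, which were not irradiated, had Csf1 at 2146 to 5426 CPM and Ccl2 at 14.3 to 221 CPM. They had Il6 at 10.4 to 32.1 CPM and Ereg at 11.7 to 53 CPM. Il1rn, the antagonist of the interleukin 1 receptor, fell from 26.8, 1.76, 0.626 and 15.4 CPM to 1.35, 0.293, 0.0359 and 2.24 CPM (-3.33 ± 0.34, adjusted p = 0.00404, and 0.0251 summed). The other members that fell were Mif and Tnfsf11 (RANK ligand), with log2 fold changes of -0.62 and -2.09.

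**Figure D3:**
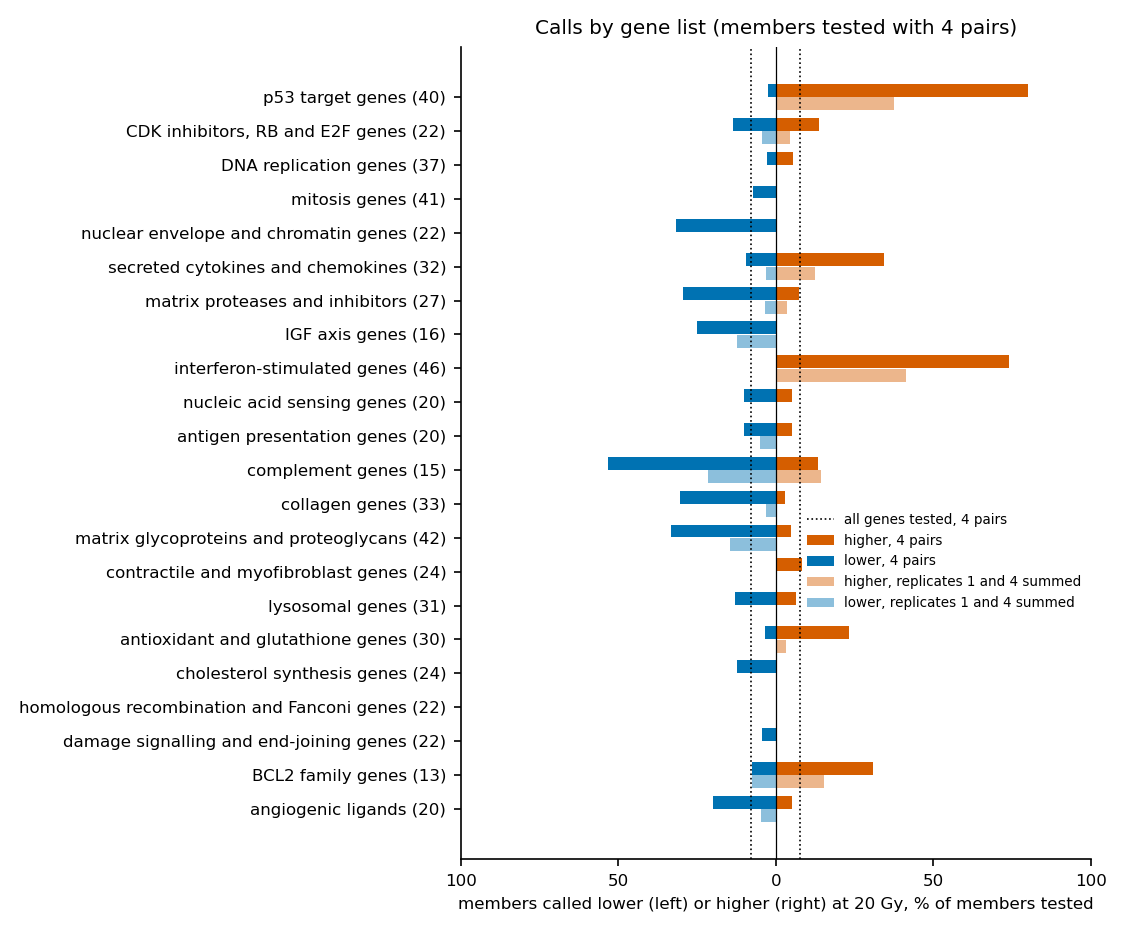
Share of tested members of 22 gene lists called higher (right, orange) or lower (left, blue) at 20 Gy, in % of members tested; dark bars are 4 pairs, pale bars replicates 1 and 4 summed, and dotted lines the shares over all genes (7.66 and 7.79%). The p53 and interferon-stimulated lists reach furthest to the right (32 of 40 and 34 of 46) and the complement list furthest to the left (8 of 15).

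Among matrix genes more calls were lower than higher, and replicate 3 began from a low level in several collagen genes. Of 33 genes of collagens and their modifying enzymes 1 was higher and 10 were lower (median -0.53), but only 1 of the 10 calls, Col8a2, held with replicates 1 and 4 summed. Col6a1, a chain of collagen VI, was at 3393, 5275, 853 and 3680 CPM untreated and at 1552, 1440, 394 and 1827 CPM at 20 Gy (log2 fold change -1.25 ± 0.21, adjusted p = 0.0127, and 0.0626 summed). Col15a1, of basement membranes, fell from 42–187 to 24.9–40.9 CPM (-1.42 ± 0.22, adjusted p = 0.0107, and 0.0559 summed), and Col8a2 from 100, 159, 0.856 and 134 CPM to 10.2, 10.3, 0.502 and 25.8 CPM (-2.98 ± 0.39, adjusted p = 0.00715, and 0.046 summed). Col1a1, the main fibrillar collagen, was at 14013, 29667, 1294 and 15231 CPM untreated and at 8282, 5782, 1429 and 9587 CPM at 20 Gy. Replicate 3 was far below the others in both groups and did not fall, and Col1a1 did not pass (-0.87 ± 0.43, adjusted p = 0.215). The member that rose was Col7a1, the anchoring fibril collagen, with a log2 fold change of 1.33 ± 0.28 (adjusted p = 0.0256, and 0.0787 summed).

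Matrix glycoproteins and proteoglycans gave 2 higher and 14 lower of 42 (median -0.56), and 0 and 6 of 41 with replicates 1 and 4 summed. Podn, the proteoglycan podocan, was nearly equal in the 4 controls, at 469, 402, 441 and 417 CPM, and at 57.5, 105, 116 and 58.8 CPM at 20 Gy (log2 fold change -2.40 ± 0.22, adjusted p = 0.00332, and 0.0251 summed). Mfap4, of elastic microfibrils, fell from 18.2, 22.5, 73.3 and 9.78 CPM to 3.4, 2.05, 12.8 and 1.1 CPM (-2.82 ± 0.20, adjusted p = 0.00221, and 0.0202 summed). Eln, elastin, fell from 98.8, 46.6, 105 and 87.2 CPM to 12, 5.86, 45.9 and 12.5 CPM (-2.47 ± 0.32, adjusted p = 0.00717, and 0.0455 summed). Cilp, a matrix protein of cartilage, fell from 465, 1291, 6.03 and 500 CPM to 48.8, 86, 0.287 and 113 CPM (-3.21 ± 0.34, adjusted p = 0.00412, and 0.0251 summed). Fbn2, fibrillin 2, had 111 and 151 CPM in untreated replicates 1 and 4 and 16.6 and 30.4 CPM at 20 Gy, but at most 0.0329 CPM in replicates 2 and 3 of either group, so its fold rests on the numbers that look alike. Spp1 (osteopontin) rose from 3.57–58.4 to 32.8–140 CPM, a log2 fold change of 2.23 ± 0.37 (adjusted p = 0.0129, and 0.0635 summed).

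Matrix proteases and their inhibitors gave 2 higher and 8 lower of 27 (summed, 1 and 1 of 28). Mmp13, a collagenase, rose from 0.223, 0.0439, 17.1 and 0.304 CPM to 0.439, 1.04, 99.8 and 0.773 CPM (log2 fold change 2.34 ± 0.34, adjusted p = 0.00958, and 0.0429 summed). Outside replicate 3 the highest level was 1.04 CPM. Serpine2, an inhibitor of serine proteases, rose from 0.581, 0.527, 5.96 and 0.54 CPM to 22.4, 12.9, 13 and 19.7 CPM (3.80 ± 0.74, adjusted p = 0.0196, and 0.093 summed). Mmp23 fell from 134–257 to 74–116 CPM (-0.93 ± 0.10, adjusted p = 0.00431, and 0.0311 summed) and Mmp2, a gelatinase, from 41.7–1714 to 27.2–1000 CPM (-0.73 ± 0.12, adjusted p = 0.0124, and 0.0717 summed). Over all genes 7.66% were called higher and 7.79% lower. Contractile and myofibroblast genes gave 2 higher and 0 lower of 24 (summed, 0 and 0, with 3 at an unadjusted p under 0.05 in edgeR). The 2 were Inhba, an activin subunit, with a log2 fold change of 0.90 ± 0.22 (adjusted p = 0.0371, and 0.155 summed), and Des, desmin, with one of 0.69 ± 0.14 (adjusted p = 0.022, and 0.0907 summed).

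Complement genes gave 2 higher and 8 lower of 15 tested (19 listed), with a median log2 fold change of -1.08; with replicates 1 and 4 summed, 2 and 3 of 14. C3, the central component, was at 317, 2620, 558 and 243 CPM untreated and at 61.6, 874, 165 and 62.2 CPM at 20 Gy. Replicate 2 was highest in both groups, and the log2 fold change was -1.89 ± 0.16 (adjusted p = 0.0029, and 0.0251 summed). Vtn, vitronectin, which inhibits the terminal complex, fell from 5.4, 35.7, 0.0329 and 5.97 CPM to 0.219, 5.18, 0 and 0.359 CPM (-3.50 ± 0.34, adjusted p = 0.00372, and 0.0271 summed). Cfd, factor D, went from 9.07 and 15.2 CPM to 0.549 and 0.994 CPM in replicates 1 and 4 and had 0 counts in replicates 2 and 3 of both groups. Cd55, which protects cells from complement, rose from 2.44–31 to 6.85–53.6 CPM, in each pair (1.22 ± 0.14, adjusted p = 0.00561, and 0.0363 summed).

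Genes of the insulin-like growth factor axis gave 0 higher and 4 lower of 16 (median -0.51, and summed 0 and 2). Igfbp3, which binds the growth factor, was at 1114, 35.4, 111 and 902 CPM untreated and at 70.7, 5.77, 5.24 and 143 CPM at 20 Gy (log2 fold change -3.38 ± 0.34, adjusted p = 0.00392, and 0.0251 summed). Igf1 itself fell from 24.7, 182, 270 and 63.8 CPM to 11.2, 72.8, 152 and 19.6 CPM (-1.22 ± 0.15, adjusted p = 0.00579, and 0.036 summed). Passaged libraries had Igfbp3 at 2.49 to 78.4 CPM and Igf1 at 3.55 to 86.3 CPM. Angiogenic ligands gave 1 higher and 4 lower of 20 (summed, 0 and 1 of 21). Apln, apelin, fell without overlap from 33.6, 55.2, 39.1 and 40.2 CPM to 10.7, 10.2, 6.78 and 11 CPM (-2.09 ± 0.17, adjusted p = 0.0029, and 0.0204 summed).

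Among antioxidant and glutathione genes 7 of 30 were higher and 1 lower (median 0.01, and summed 1 and 0). Hmox1, heme oxygenase 1, rose from 197, 137, 201 and 165 CPM to 378, 347, 399 and 342 CPM, without overlap (log2 fold change 1.11 ± 0.11, adjusted p = 0.00391, and 0.0325 summed). Ftl1, ferritin light chain, had a log2 fold change of 0.86 ± 0.14 (adjusted p = 0.0116, and 0.0758 summed). Beside 7.66 and 7.79% of all genes, lysosomal genes gave 2 higher and 4 lower of 31. Cholesterol synthesis genes gave 0 higher and 3 lower of 24. Neither list kept a call with replicates 1 and 4 summed (9 and 4 members at an unadjusted p under 0.05 in edgeR). Lamp2, a lysosomal membrane protein, had a log2 fold change of -0.74 ± 0.13 (adjusted p = 0.0134, and 0.0767 summed), and Srebf2, the regulator of cholesterol synthesis, one of -0.41 ± 0.11 (adjusted p = 0.0446, and 0.132 summed).

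The largest rises outside the lists, among genes with at least 5 CPM on average and the same direction in 4 pairs, began from low levels in most controls, and from at most 2.14 CPM outside replicate 3 of Cck and Hsd3b6. Prl2c3, of the proliferin family of prolactin-like hormones, was at 0.581, 0.0879, 0.198 and 0.742 CPM untreated and at 65.2, 5.21, 0.753 and 44.6 CPM at 20 Gy (log2 fold change 5.90 ± 0.54, adjusted p = 0.00331, and 0.036 summed). Its relative Prl2c2 had a log2 fold change of 3.60 ± 0.60 (adjusted p = 0.0131, and 0.0782 summed), and reads shared between these near copies leave their separate values uncertain. Cck, cholecystokinin, rose from 0.402, 0.527, 9.98 and 0.573 CPM to 9.18, 10.1, 59.2 and 24.2 CPM (3.92 ± 0.45, adjusted p = 0.00536, and 0.036 summed). Olr1, a receptor for oxidised low-density lipoprotein, rose from 0.0439–1.71 to 2.35–28.6 CPM (3.72 ± 0.38, adjusted p = 0.00394, and 0.0251 summed). Hsd3b6, a steroid dehydrogenase with near copies, was at 0 in 3 controls and 4.58 CPM in the fourth, and at 7.06, 1.4, 56.4 and 4.56 CPM at 20 Gy. Several of these genes were also present in passaged libraries, which were not irradiated. There Prl2c3 was at 0.035 to 41.5 CPM, Prl2c2 at 4.53 to 24.4, Cck at 4.94 to 32.3 and Hsd3b6 at 0.402 to 27.1 CPM. Olr1 was at 0.21 to 4.67 CPM there. Among the falls, Adamtsl2, a binder of microfibrils, went without overlap from 1.89–19.3 to 0.0652–0.914 CPM (-4.09 ± 0.24, adjusted p = 0.00221, and 0.0202 summed). Gpr15lg, a ligand of a chemoattractant receptor, fell from 5.63, 79.3, 1.45 and 15.2 CPM to 1.5, 3.03, 0.466 and 0.967 CPM (-3.36 ± 0.54, adjusted p = 0.0124, and 0.0412 summed). Both were low in passaged libraries as well, Adamtsl2 at 0 to 0.206 CPM and Gpr15lg at 0.718 to 2.01 CPM.

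The dose was compared directly between the 20 Gy and 10 Gy libraries at 12 d. Of 14770 genes 38 passed (0.257%), of which 1 was higher at 20 Gy (0.00677%) and 37 were lower (0.251%); with replicates 1 and 4 summed 16 passed. The same test gave 8 calls without replicate 1, 18 without replicate 4 and 119 without replicate 3. Of the 37, 5 were on the interferon-stimulated list and 6 on the mitosis list. Of 49 interferon-stimulated genes tested in this comparison, 48 estimates were below 0 (median -0.54; all genes 0.00). The size of the drop differed between replicates. The mean log2(CPM + 1) over 46 members was 5.18 at 10 Gy and 4.17 at 20 Gy in replicate 1. It was 4.67 and 4.38 in replicate 2, and 4.92 and 4.82 in replicate 3. All 4 pairs were lower at 20 Gy, but the gap was wider in replicates 1 and 4, which look alike, than in replicates 2 and 3. Oas2 averaged 0.592 ± 0.258 CPM untreated (SD, n = 4), 19.6 ± 8.97 CPM at 10 Gy and 8.49 ± 3.87 CPM at 20 Gy, a difference of -1.19 ± 0.18 on the log2 scale between the doses (edgeR adjusted p = 0.0204, and 0.0333 summed). Oas1a averaged 0.553 ± 0.24, 10.8 ± 5.97 and 5.17 ± 2.66 CPM in the same order (-1.04 ± 0.11, adjusted p = 0.00457, and 0.0313 summed). Iigp1, a GTPase, was at 2.96 to 7.44 CPM at 10 Gy and 1.3 to 2.3 CPM at 20 Gy (-1.40 ± 0.15, adjusted p = 0.00457, and 0.0333 summed) and was not called against untreated (adjusted p = 0.12). Trim30a and Rsad2 (viperin) were the remaining members, with differences of -0.80 ± 0.11 (adjusted p = 0.0176, and 0.0497 summed) and -1.47 ± 0.24 (adjusted p = 0.0283, and 0.12 summed). Cxcl10, an interferon-induced chemokine, had a difference of -1.54 ± 0.26 (adjusted p = 0.0317, and 0.166 summed) at levels of 0.473 to 4.53 CPM at 10 Gy and 0.215 to 1.27 CPM at 20 Gy.

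**Figure D4:**
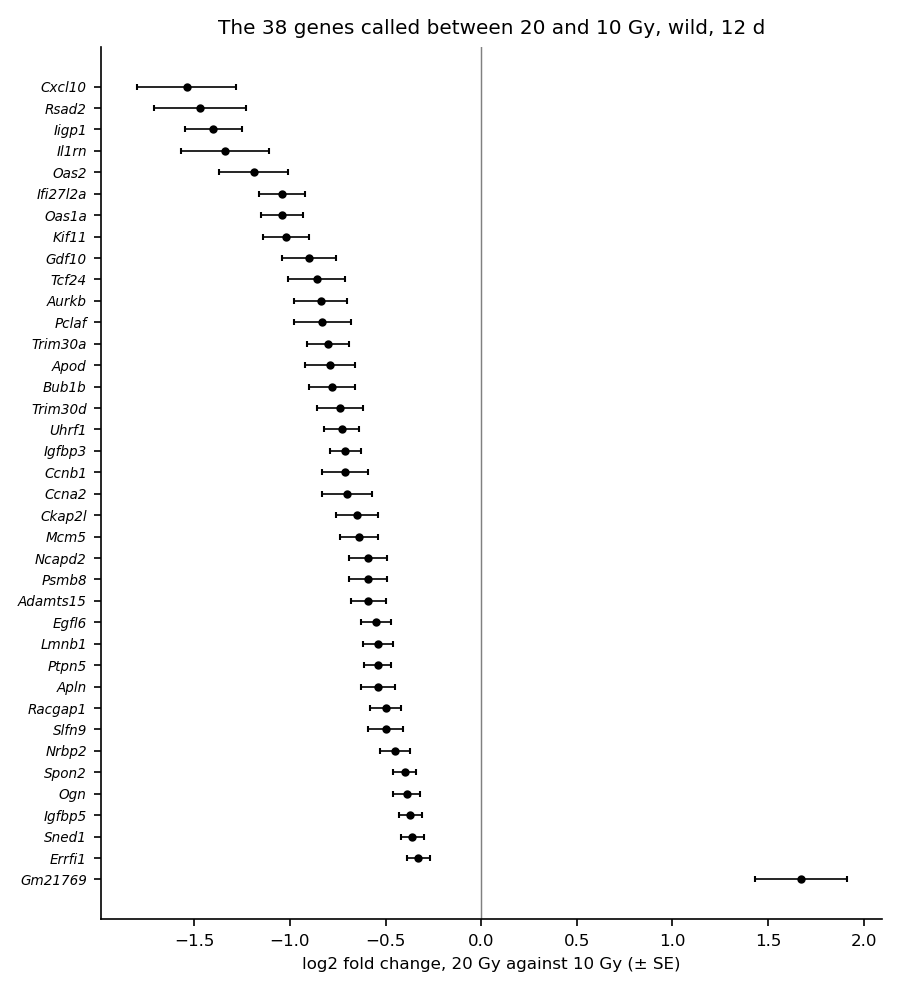
Log2 fold change between 20 Gy and 10 Gy (± SE, 4 pairs) for the 38 genes called in that comparison, in order of size. Cxcl10, Rsad2, Iigp1 and Il1rn lie lowest and Gm21769 is the 1 gene higher at 20 Gy.

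All 41 mitosis genes had an estimate below 0 between 20 Gy and 10 Gy (median -0.50), and 6 passed. Kif11, a spindle motor, differed by -1.02 ± 0.12 (adjusted p = 0.00457, and 0.0333 summed), Aurkb, a mitotic kinase, by -0.84 ± 0.14 (adjusted p = 0.03, and 0.0749 summed), and Bub1b, of the spindle checkpoint, by -0.78 ± 0.12 (adjusted p = 0.0204, and 0.0342 summed). The other calls were Ccnb1, Ccna2 and Racgap1, with an adjusted p of 0.0871, 0.0749 and 0.0372 summed. Lmnb1 was also lower at 20 Gy, with a difference of -0.54 ± 0.08 (adjusted p = 0.0204, and 0.0461 summed). The single gene that was higher at 20 Gy, Gm21769, differed by 1.67 ± 0.24 (adjusted p = 0.0176, and 0.0333 summed) at about 2.11 CPM. Of 40 p53 targets 0 passed in this comparison (median difference 0.04), with Cdkn1a at 0.07 ± 0.06 (adjusted p = 0.875). Because both doses were set against the same controls, their changes from untreated are not independent. Beside each other, the median change of interferon-stimulated genes was 1.76 at 10 Gy and 1.13 at 20 Gy, of p53 targets 0.99 and 1.07, of mitosis genes 0.08 and -0.47 and of collagen genes -0.52 and -0.53.

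**Figure D5:**
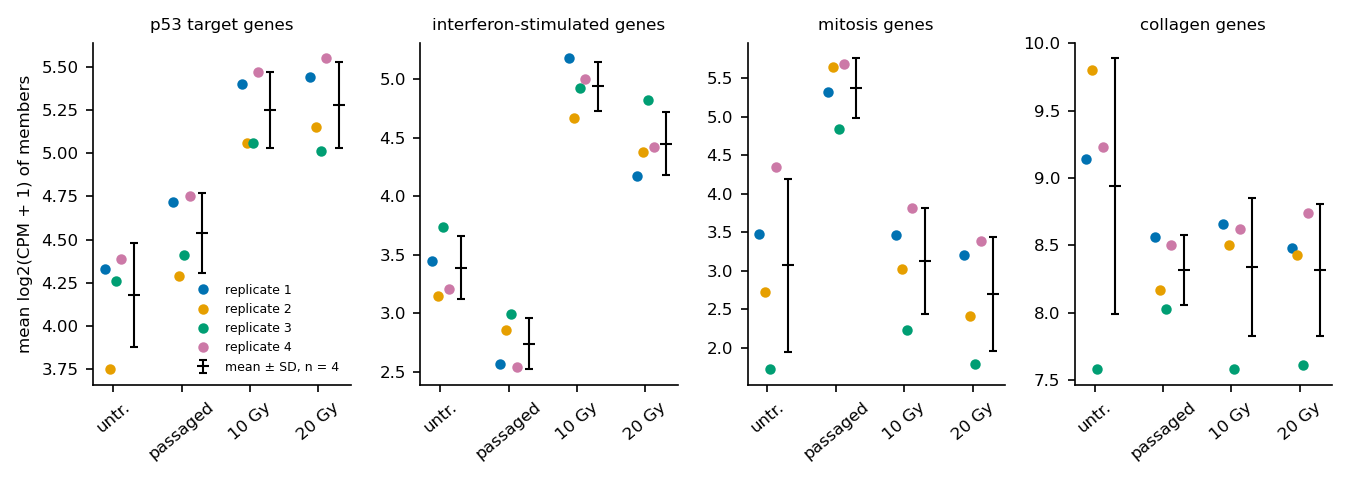
Mean log2(CPM + 1) over the members of 4 gene lists in each wild mouse library at 12 d; points are replicates and bars the mean ± SD (n = 4). Mitosis genes are at 4.84 to 5.68 in passaged libraries and 1.72 to 4.35 in untreated ones, and interferon-stimulated genes average 3.39 untreated, 2.74 passaged, 4.94 at 10 Gy and 4.45 at 20 Gy.

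In passaged libraries the mean log2(CPM + 1) of interferon-stimulated genes was 2.74 ± 0.22 (SD, n = 4), against 3.39 ± 0.27 in untreated and 4.45 ± 0.27 in 20 Gy libraries. Mitosis genes averaged 5.37 ± 0.39 passaged, 3.07 ± 1.12 untreated and 2.70 ± 0.74 at 20 Gy, with replicate 3 lowest in all 3 groups. Collagen genes averaged 8.32 ± 0.26 passaged, 8.94 ± 0.95 untreated and 8.32 ± 0.49 at 20 Gy. In the same order, matrix glycoproteins and proteoglycans averaged 6.70 ± 0.31, 7.79 ± 0.55 and 7.09 ± 0.46. Complement genes averaged 3.22 ± 0.21, 4.90 ± 0.18 and 4.21 ± 0.51, and p53 targets 4.54 ± 0.23, 4.18 ± 0.30 and 5.28 ± 0.25. These levels were not tested.

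At 24 h after 20 Gy, measured in another batch against its own controls, the median log2 fold change was 0.67 for p53 targets, 0.16 for interferon-stimulated genes and -0.33 for mitosis genes. Cdkn1a had a log2 fold change of 1.28 ± 0.17 at 24 h and 2.44 ± 0.21 at 12 d, and Isg15 one of 0.03 at 24 h and 2.27 at 12 d. The difference between the times was not tested.

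In C56BL6 fibroblasts at 12 d after 20 Gy the medians were 0.66 for p53 targets, 0.71 for interferon-stimulated genes, -1.04 for mitosis genes and -0.90 for collagen genes. The difference between the wild and C56BL6 changes was tested as an interaction. Of 15914 genes 16 passed (0.101%; 10 with a more positive change in wild mice, 0.0628%, and 6 with a more negative one, 0.0377%). With replicates 1 and 4 of the wild mice summed 0 passed in edgeR, with 1429 at an unadjusted p under 0.05. Egfl6, a secreted matrix protein, fell in wild mice by 3.01 on the log2 scale and in C56BL6 by 6.34, a difference of 3.36 ± 0.32 (adjusted p = 0.0139). Nqo1, a detoxifying reductase, had a log2 fold change of 0.73 in wild mice and 2.16 in C56BL6 (difference -1.43 ± 0.14, adjusted p = 0.0139). H19, a long noncoding RNA, had changes of -0.45 and -3.46 (3.01 ± 0.41, adjusted p = 0.0392), and Pdgfrl, a receptor-like protein, -0.89 and -3.04 (2.13 ± 0.25, adjusted p = 0.026). Untreated H19 averaged 54.1 ± 58.2 CPM in wild mice and 879 ± 593 CPM in C56BL6 (SD). The wild controls were at 105, 4.57, 2.67 and 104 CPM, so their level rests on replicates 1 and 4, which look alike. Gm867 and Gm20544 had a more negative change in wild mice, with differences of -3.30 ± 0.43 and -1.36 ± 0.19 (adjusted p = 0.0451 for both). Gm20544 rose in both populations, by 0.46 in wild mice and 1.81 in C56BL6, while Gm867 changed by -1.42 and 1.87. Levels of Gm867 were low, with means of 3.09 CPM untreated and 1.09 CPM at 20 Gy in wild mice. In C56BL6 they were 0.287 and 1.02 CPM. None of the p53, interferon-stimulated, mitosis or collagen lists had a member called. Cdkn1a, with 2.44 in wild mice and 0.91 in C56BL6, differed by 1.53 ± 0.26 and did not pass (adjusted p = 0.0663). All 41 mitosis estimates were above 0 in this comparison (median 0.54) and 0 were called.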

How the data were processed

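RNA sequencing of polyA RNA from primary skin fibroblasts was counted by the authors. The deposited table holds raw read counts per gene, made with featureCounts 2.0.3 on GRCm39 with Ensembl release 108, per the file headers. Its command set no strand option, so reads of a gene and its antisense partner cannot be told apart. Trim Galore and HISAT2 are named in the submitters' processing notes, without versions. The 56 count columns were matched to samples by their headers, and 56236 of 56980 gene IDs got symbols from GENCODE M39 (GRCm39). Promoters came from RefSeq (GRCm38.p6).

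Genes passing edgeR's filterByExpr were scaled by TMM and tested with the quasi-likelihood test (edgeR 4.0.16, R 4.3.3) on replicate number plus treatment, adjusted by Benjamini-Hochberg over all genes tested, at 0.05. Each standard error is the log2 fold change divided by the square root of the F statistic. Printed CPM use library sizes over tested genes and TMM factors of the 16 wild mouse libraries at 12 d. The procedure was tested on simulated data with known changes. Those data held no differences in mean level between replicate numbers and no look-alike pair. They therefore cannot check how the number of calls depends on either. The numbers pair the samples: library names give 1 animal code per number, and deviations from the group means correlated at 0.71 to 0.85 within numbers (14399 genes). Numbers 1 and 4 also correlated with each other, at 0.51 and 0.62. Nothing says that cultures of an animal were separate before irradiation, so p-values measure only the spread between these samples. Alternatives were RLE factors, no filter, DESeq2 1.42.0, no block, each replicate left out, replicates 1 and 4 summed, and all wild 12 d groups in one fit.

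Named genes were a panel of 9, the 10 largest rises and falls (at least 5 CPM on average, same direction in 4 pairs), up to 4 genes of lowest p per list, and 3 each way per difference test. A few further list members were named after their values were seen. Members and lists were chosen with earlier results of these data known.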

Additional observations from a re-analysis of the deposited data

Results flagged for a closer look

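In groups of 4 libraries, a library was singled out if its gap to the nearest other, over the whole range, exceeded Dixon's 95% critical value. Of 228 groups of named genes tested 21 met this, of which 18 were in replicate 3, 3 in replicate 2 and 0 in replicates 1 and 4. Replicates 1 and 4 look alike, so each mostly has a near neighbour, and this rule can hardly single them out. For 4 independent values with a normal spread, chance singles out about 1 in 20 groups. The 4 libraries may hold 3 animals, so that rate need not hold here.

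In untreated replicate 3 the level was far above the other controls for Hsd3b6 (4.58 CPM), Cck (9.98 CPM), Serpine2 (5.96 CPM), Ereg (30.1 CPM), Mmp13 (17.1 CPM) and Sema3e (26 CPM), and far below them for Col8a2 (0.856 CPM), Rrm2 (4.84 CPM) and Igfbp6 (105 CPM). In replicate 3 at 20 Gy it was far above the others for Il6 (69.7 CPM), Ifi44 (80.9 CPM), Mmp13 (99.8 CPM), Ifnar2 (74.4 CPM) and Sema3e (42.4 CPM), and far below for Inka2 (12 CPM), Igfbp6 (49.4 CPM), Col6a1 (394 CPM) and Xrcc6 (20.3 CPM). Replicate 2 was lowest for untreated Inka2 (1.01 CPM) and for H2-Q4 at 20 Gy (1.24 CPM), and highest for Vtn at 20 Gy (5.18 CPM).

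For 6 named genes the change at 20 Gy differed between wild and C56BL6 fibroblasts in the interaction test. The log2 differences were 3.36 for Egfl6, 3.01 for H19, 2.13 for Pdgfrl, -1.36 for Gm20544, -1.43 for Nqo1 and -3.30 for Gm867, and none of the 6 passed with wild replicates 1 and 4 summed.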

How the results depend on the processing

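The 20 Gy against untreated comparison gave 2224 calls, 2201 with RLE factors, 2985 without the filter (which moved the median log2 fold change of all genes to 0.17) and 2984 with DESeq2. It gave 359 with replicates 1 and 4 summed, 288 to 2469 with one replicate left out, and 4128 with all wild 12 d groups in one fit. Without the replicate block 10 genes passed, with 1984 at an unadjusted p under 0.05, and all 10 were among the 2224. Pairing also decided the other comparisons, where 0 of the 38 dose calls and 0 of the 16 interaction calls stood without the block (37 and 353 genes at an unadjusted p under 0.05). The dose comparison gave 292 calls without the filter, 55 with DESeq2, 16 with replicates 1 and 4 summed, 8 to 119 with one replicate left out, and 0 with all wild 12 d groups in one fit (226 at an unadjusted p under 0.05). The interaction gave 13 calls with RLE factors, 292 without the filter, 349 with DESeq2 and 0 with replicates 1 and 4 summed. It gave 0 to 198 with a wild replicate left out and 0 to 98 with a C56BL6 replicate left out. Of the 115 named genes, tested for 20 Gy against untreated, 89 lost their call without the block, 48 of 112 with replicates 1 and 4 summed, 50 of 113 without replicate 1 and 46 of 112 without replicate 4. With RLE factors all 115 kept direction and call. The direction changed for Gm21769 alone, to -0.19 without replicate 4 (0.54 without replicate 1), and the cause was not tested. Genes near the level of 3 counts, about 0.1 CPM, are the least precise.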

Other observations

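The number of genes detected was compared at equal depth. Scaled down to 23000000 counts, the expected number of genes with at least 1 count was 19619, 18826, 19760 and 20016 in untreated replicates 1 to 4 and 22248, 22545, 21183 and 23559 at 20 Gy. Every 20 Gy library was above every control, by 2829 genes on average (two-sided exact permutation test within pairs, p = 0.125). With replicates 1 and 4 averaged the difference was 2743 (exact permutation p = 0.25). These are the smallest p that 4 and 3 pairs can give, so the design cannot pass 0.05 here. The mean was 22104 ± 658 at 10 Gy and 19829 ± 257 in passaged libraries (SD, n = 4).

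The count was higher at 20 Gy in each annotation class counted. Protein-coding genes went from 14277 ± 212 to 15796 ± 367, long noncoding RNAs from 2654 ± 150 to 3392 ± 302, pseudogenes from 1691 ± 99 to 1928 ± 123 and unclassified transcripts (TEC) from 598 ± 34 to 803 ± 115 (SD, n = 4 each). In all 4 classes the irradiated library was the higher one in each of the 4 pairs (exact permutation p within pairs = 0.125 each, and 0.25 with replicates 1 and 4 averaged). Mitochondrial transcripts took 1.39 to 2.06% of counts at 20 Gy and 0.77 to 1.41% untreated; their part, and that of RNA quality, was not tested.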
